A study of Bos taurus with 48 samples.

Results

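Subcutaneous adipose tissue of 6 heifers reared on a high-protein low-energy diet (HPLE) was compared between month 7 of gestation and 12 months of age. The samples were those labelled with high dietary protein and low dietary energy, which gave 12 of the 48 samples of the study, paired by the number of the heifer. All animals were female Norwegian Red cattle, and biopsies were taken lateral to the tail base. HPLE heifers received a high-protein concentrate with restricted rations of a silage and straw mixture from 3 months of age until they were pregnant, and then a low-energy feed ad libitum together with all other heifers. The other diets were low protein with low energy (LPLE), high protein with high energy (HPHE) and low protein with high energy (LPHE), with 6 heifers each. In each diet 3 heifers came from a line selected for high milk yield (HMY, here heifers 1, 9 and 17) and 3 from a line selected for low clinical mastitis (LCM, here heifers 7, 13 and 21). Gestation, the higher age and the change of feed came together between the biopsies and cannot be told apart.

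In cattle, adipose tissue is the main site of fatty acid synthesis, with acetate as the chief carbon source, citrate and malate shuttles as further supplies of acetyl units and reducing power, and insulin as the main stimulus. Adipocyte mitochondria supply citrate and ATP for this route and break down the branched-chain amino acids leucine, isoleucine and valine. In late gestation the nutrient demand of the calf rises, and ruminant fat depots usually shift from fat deposition towards fat release.

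The gene reads per HPLE library ranged from 19650014 to 59809633, and levels are given in counts per 1000000 gene reads (CPM) after TMM scaling of the libraries. CIDEC, a lipid droplet protein of fat cells, lay between 1115 and 2216 CPM at 12 months and between 969.6 and 2096 CPM in gestation, and it was the only adipocyte marker of the list with a matched identifier (ADIPOQ, PLIN1 and FABP4 had none). The summed level of 6 skeletal muscle markers was 123 CPM in heifer 9 at 12 months and 182 CPM in heifer 17 in gestation, against 1.55 to 9.98 CPM in the other 10 libraries. In the gestation library of heifer 7, 40.0% of the alignments were not unique, against 14.6% to 23.1% in the others. Heifer 13 scored highest on the first principal component at both times (25.98 and 32.7, against -19.4 to 9.06 for the rest). The score on this component, which held 32.6% of the variance of the 500 most variable genes, was higher in gestation in 6 of 6 heifers (two-sided exact sign-flip permutation test, p = 0.0312, the smallest that 6 pairs allow).

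Between 12 months and gestation 311 of 13718 genes changed in HPLE heifers (2.27%). Of these, 192 rose (1.4%) and 119 fell (0.867%), at a false discovery rate (FDR) under 0.05 in the quasi-likelihood test of edgeR with heifer as a block and the spread estimated over all 48 samples. The change had the same direction in 6 of 6 heifers for 264 of the 311 genes, while over all genes tested 4.25% were higher and 3.83% lower in every heifer. The levels of both times did not overlap for 79 of them, 55 higher and 24 lower, against 0.576% and 0.328% of all genes. The 311 genes were called from these same 6 differences, so both counts follow largely from that choice and are not separate evidence. The median size of a called change was 0.84 on the log2 scale, and 126 genes changed more than 2-fold. With each heifer left out in turn the count ran from 117 to 326, and it was 187 without heifer 7, 183 without heifer 9, 150 without heifer 17, 117 without heifer 21 and 89 without both heifers with a library high in muscle transcripts. Without the heifer block 156 genes were called, and a fit on the 12 HPLE samples alone, with 5 residual degrees of freedom in place of 20, called 9, all among the 311. In this test most of the 311 calls thus rest on a spread estimated together with the other diets. Whether that spread holds for HPLE heifers was not tested. Of the 311 genes, 1 had over 0.5 CPM in at most 2 of the 12 libraries.

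**Figure D1:**
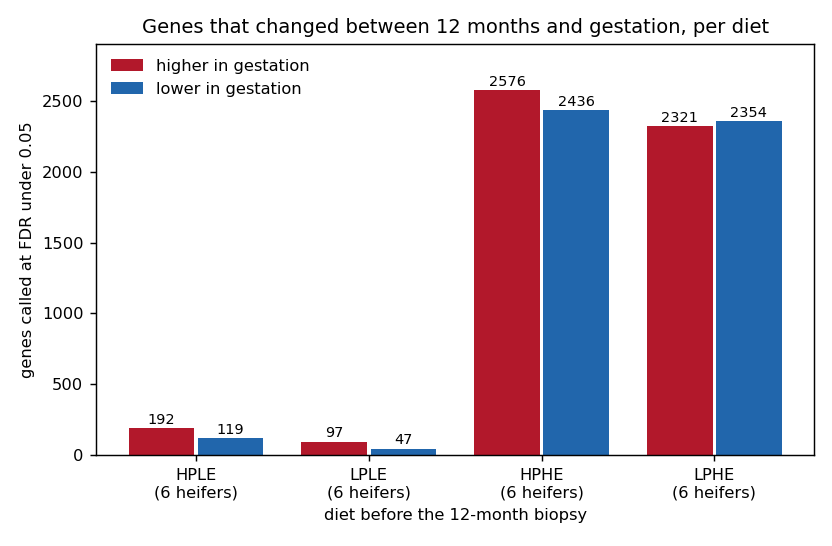
Number of genes called higher (red) or lower (blue) in month 7 of gestation than at 12 months at FDR under 0.05, on the y axis, for the 6 heifers of each diet on the x axis. The HPLE bars stand at 192 and 119 genes, above LPLE (97 and 47) and far below HPHE (2576 and 2436) and LPHE (2321 and 2354).

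The gene with the lowest p had no symbol here. ENSBTAG00000003515 lay between 1.53 and 8.34 CPM at 12 months and between 24.4 and 158 CPM in gestation, without overlap (log2 fold change 3.48 ± 0.30 (SE), FDR 4.34e-07). ENSBTAG00000015402 rose from a median of 10.1 to 52.7 CPM (FDR 0.00084). Among unnamed genes that fell, ENSBTAG00000033441 went from a median of 6.61 to 2.42 CPM and ENSBTAG00000006320 from 76.0 to 39.5 CPM. Only 1006 of the genes tested could be paired with a symbol, most of them genes that the study had selected as different between LPHE and LPLE heifers at 12 months. In that set 52 genes were called (5.17%), 20 higher (1.99%) and 32 lower (3.18%), and its median change was -0.12 against -0.01 on the log2 scale for all genes, so the counts of named genes that follow are to be read against those shares and not as independent evidence.

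Transcripts of the respiratory chain were among those that fell, and 3 of them are encoded by the mitochondrial genome itself. COX1, the catalytic core of cytochrome c oxidase and the most abundant transcript named here, lay between 19442 and 47931 CPM at 12 months (median 38940) and between 12187 and 22671 CPM in gestation (median 20551). It was lower in 6 of 6 heifers, and the groups overlapped only through heifer 13, whose level at 12 months was below that of 4 gestation libraries. The fall of COX1 passed the test (log2 fold change -0.88 ± 0.16 (SE), FDR 0.00471). COII, the second subunit of the same enzyme, fell from a median of 5137 to 2807 CPM (log2 fold change -0.84, FDR 0.0106), and ND5, a subunit of complex I, from 3793 to 2220 CPM (-0.78, FDR 0.0116). Both were lower in every heifer. The share of reads on the 10 most abundant genes, among which such transcripts stand, was lower in 5 of 6 heifers (9.20% to 15.2% in gestation, 13.4% to 15.2% at 12 months, exact sign-flip permutation p = 0.0625).

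Of 52 nuclear genes of the electron transport chain, all 52 had a negative log2 fold change, 16 were lower in every heifer and 2 passed the test. The background for this list and those below is the 1006 genes with a symbol. Of these 1006, 640 had a negative value, 96 were lower in every heifer and 32 were called lower. COX5A, a nuclear subunit of cytochrome c oxidase, lay between 63.1 and 132 CPM at 12 months and between 48.7 and 76.6 CPM in gestation (log2 fold change -0.66 ± 0.17 (SE), FDR 0.0346). UQCRB, a subunit of complex III, lay between 61.4 and 101 CPM and then between 43.3 and 69.5 CPM (-0.57, FDR 0.037). In both genes each heifer was lower in gestation while the groups overlapped. The median log2 fold change was -0.40 over 24 genes of complex I, -0.48 over 8 of complex III, -0.47 over 10 of complex IV and -0.34 over 7 of ATP synthase. COQ2, which builds the side chain onto ubiquinone, the electron carrier of the chain, fell without overlap from a range of 30.4 to 36.5 CPM to one of 20.5 to 26.6 CPM (FDR 0.0124). The calls of this list went to 0 when heifer 7, 17 or 21 was left out and to 4 without heifer 1, and the median of the list stayed between -0.51 and -0.31.

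In the citric acid cycle 15 of 16 genes were negative and 8 were lower in every heifer, but none passed the test (2.27% did of all genes). FH, fumarase, had the lowest p, with 108 to 143 CPM at 12 months and 76.0 to 104 CPM in gestation, groups that did not overlap (log2 fold change -0.43 ± 0.12 (SE), FDR 0.056). MDH2, mitochondrial malate dehydrogenase, went from a median of 205 to 144 CPM with 6 of 6 heifers lower (FDR 0.088), and CS, citrate synthase, from 183 to 139 CPM with 5 of 6 lower (FDR 0.126). PCK2, the mitochondrial phosphoenolpyruvate carboxykinase, which draws oxaloacetate from this cycle, was the called member of 3 genes of triacylglycerol synthesis. It lay between 341 and 682 CPM at 12 months and between 126 and 393 CPM in gestation, and fell by 1.02 on the log2 scale (SE 0.23, FDR 0.0194), a call lost without heifer 7, 13, 17 or 21.

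Breakdown of branched-chain amino acids was the list with the most called members. Of 14 genes tested 3 fell and none rose, 13 were negative and the median log2 fold change was -0.37. IVD, isovaleryl-CoA dehydrogenase of the leucine branch, was between 137 and 281 CPM at 12 months and in the narrow range of 102 to 125 CPM in gestation, without overlap (log2 fold change -0.64 ± 0.15 (SE), FDR 0.0244). ALDH6A1, which acts in the valine branch, fell from a median of 61.4 to 40.6 CPM (FDR 0.0265), and MCEE, methylmalonyl-CoA epimerase, which passes the propionyl-CoA of valine and isoleucine on to the citric acid cycle, from 26.9 to 16.1 CPM (FDR 0.0289). Each was lower in 6 of 6 heifers. HPD, which acts in tyrosine breakdown, fell from a median of 5.86 to 0.63 CPM, the largest fitted fall among the named genes that were called (log2 fold change -3.10 ± 0.52 (SE), FDR 0.00293). The calls in the branched-chain list went to 0 without heifer 7, 17 or 21 and to 1 without heifer 13, and 4 were made without heifer 9.

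**Figure D2:**
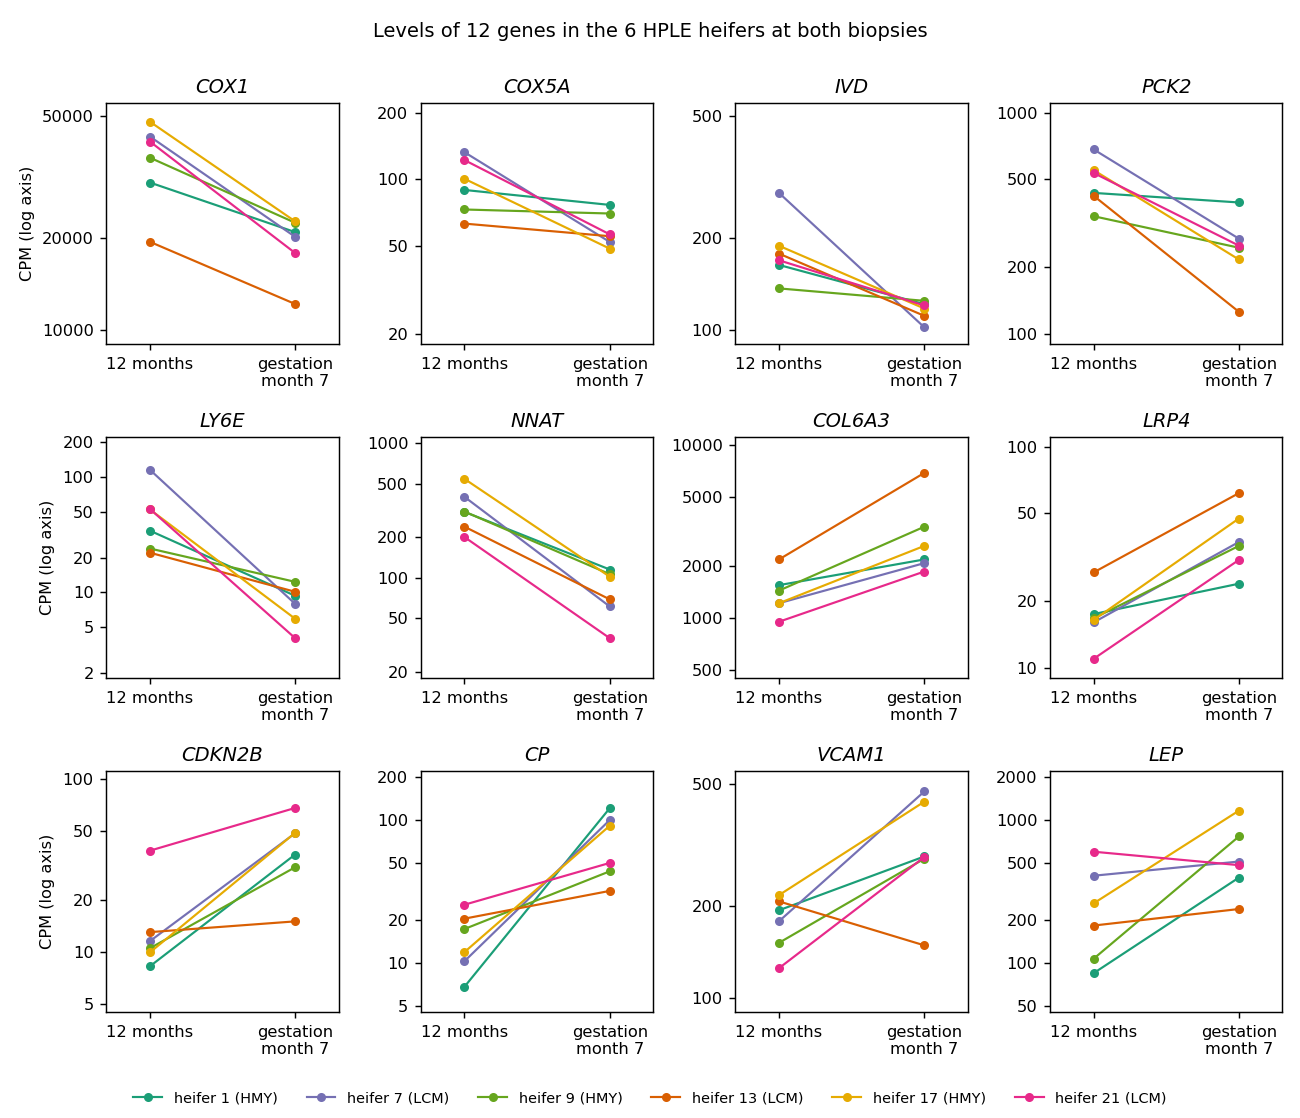
Levels in CPM after TMM scaling (y axes, log scale, a different range in each panel) of 12 genes at 12 months and in month 7 of gestation (x axes), each line being 1 HPLE heifer. COX1, COX5A, IVD, PCK2, LY6E and NNAT were lower and COL6A3, LRP4, CDKN2B and CP higher in gestation in all 6 heifers, while VCAM1 and LEP were higher in 5 of 6.

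Genes of fatty acid synthesis moved less uniformly. All 9 genes of fatty acid synthesis, elongation and desaturation had a negative log2 fold change with a median of -0.64, yet none passed the test and none was lower in every heifer. FASN, fatty acid synthase, lay between 5160 and 17677 CPM at 12 months and between 1931 and 8859 CPM in gestation, with 5 of 6 heifers lower (log2 fold change -1.05 ± 0.36 (SE), FDR 0.117). Among 11 genes that supply acetyl-CoA and NADPH, 10 were negative, none was called and the median was -0.35. SLC25A1, the mitochondrial citrate carrier, had the lowest p of these and went from a median of 441 to 242 CPM with 6 of 6 heifers lower (log2 fold change -1.05 ± 0.32 (SE), FDR 0.0753). The 9 genes of beta-oxidation were also all negative (median -0.46) without a call, and DECR1, which handles unsaturated acyl chains, was closest to the threshold (FDR 0.055, 5 of 6 heifers lower). Beta-oxidation gained 3 calls without heifer 9 and 1 without heifer 1.

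The heifers differed in the lists of lipid and mitochondrial genes. Over the 9 genes of fatty acid synthesis the median log2 change was 0.39 in heifer 1 and 0.28 in heifer 9, and -1.48 in heifer 7, -1.05 in heifer 13, -0.83 in heifer 17 and -0.92 in heifer 21. For the electron transport chain the medians were 0.01 in heifer 1, -0.07 in heifer 9 and -0.17 in heifer 13, against -0.77, -0.83 and -0.56 in heifers 7, 17 and 21. Over the 4 genes of fatty acid uptake and activation the medians of heifers 7 and 21 were positive (0.52 and 0.37). Heifers 1 and 9 were both of the HMY line, and heifer 17, of the same line, stood with the LCM heifers. Over all genes tested the medians of the 6 heifers lay between -0.03 and 0.02. The difference between HMY and LCM heifers in the change with time was called for 0 of 13718 genes (742 at an unadjusted p under 0.05, lowest FDR 0.547), for 2 with the likelihood ratio test and for 6 with DESeq2. TINAGL1, a matrix protein, was the only gene with a symbol among the 5 with the lowest p in this difference (FDR 0.691).

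**Figure D3:**
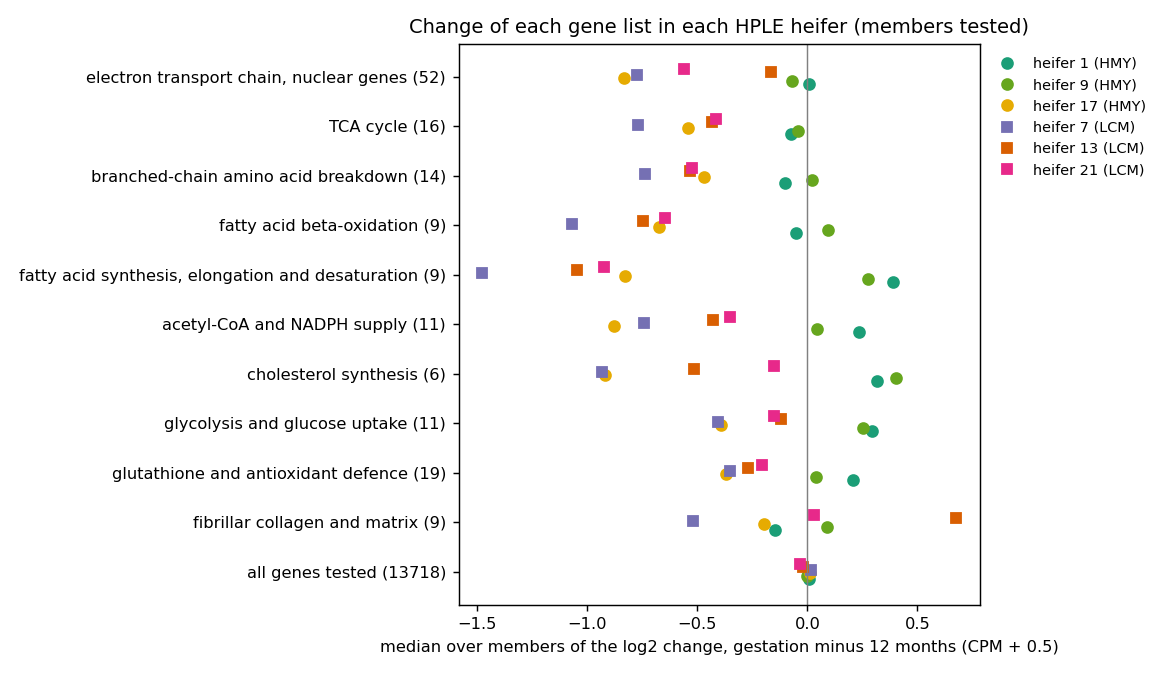
Median over the members of each gene list of the log2 change from 12 months to gestation (x axis, log2 of CPM plus 0.5), for each HPLE heifer (circles HMY, squares LCM), with the number of genes tested in parentheses. Heifers 1 and 9 lie near or above 0 in the 9 metabolic lists plotted while heifers 7, 13, 17 and 21 lie below 0, and all 6 lie near 0 over all genes.

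Several genes outside these pathways fell more steeply. NNAT, neuronatin, a small membrane protein of the endoplasmic reticulum, lay between 201 and 541 CPM at 12 months and between 35.7 and 115 CPM in gestation. No gestation library reached the lowest level of 12 months, and the fall was 2.06 on the log2 scale (SE 0.32, FDR 0.00122). The study also selected NNAT as different between HPHE and HPLE heifers at 12 months, a contrast that used these 12-month libraries. LY6E, a surface protein induced by interferon, fell without overlap from a median of 43.2 to 8.64 CPM (FDR 0.00107), and MPV17L, a membrane protein of mitochondria and peroxisomes, from 7.62 to 1.29 CPM (FDR 0.00122). The 4 genes of the interferon response list had no call (OAS1X, FDR 0.413, with 177 CPM in heifer 1 at 12 months and at most 20.0 CPM in the other 5 heifers at that time).

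THEM4, an acyl-CoA thioesterase, had the lowest p of the genes with a symbol. Its median fell from 25.8 to 13.3 CPM (log2 fold change -0.94 ± 0.13 (SE), FDR 0.00084), with 6 of 6 heifers lower. GSTT3, a glutathione transferase, was the 1 called member among 19 genes of glutathione and antioxidant defence, with medians of 103 and 36.8 CPM and 6 of 6 heifers lower (FDR 0.0279), and its call was lost without heifer 7, 13, 17 or 21. C1QTNF6, a secreted protein of the C1q and tumour necrosis factor family, fell from a median of 187 to 57.0 CPM, and CCDC85C, a cell junction protein, from 24.2 to 13.6 CPM (FDR 0.0185 and 0.00614).

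COL6A3, a chain of type VI collagen that surrounds fat cells, lay between 953 and 2179 CPM at 12 months and between 1855 and 6863 CPM in gestation, with heifer 13 highest at both times (log2 fold change 1.03 ± 0.23 (SE), FDR 0.0167). It was the only called member of 9 genes of fibrillar collagen and matrix, whose median was -0.03, and 0.01 with library size alone as the scaling, and the call of COL6A3 was lost without heifer 9. LARP6, which binds collagen mRNA, rose from a median of 17.9 to 31.0 CPM (FDR 0.0354), and CHST1, a sulfotransferase of keratan chains, from 49.6 to 96.5 CPM without overlap (FDR 0.0236). Of 10 genes of matrix processing none passed, and XYLT1, which starts glycosaminoglycan chains, came closest (0.99, FDR 0.0774).

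LRP4, a receptor of the LDL receptor family, had the lowest p among the named genes that rose. Its levels were 11.02 to 27.0 CPM at 12 months and 24.1 to 61.6 CPM in gestation, higher in each heifer (log2 fold change 1.16 ± 0.19 (SE), FDR 0.00293). A4GALT, which makes globo-series glycolipids, rose from a median of 10.5 to 33.7 CPM, and GPRC5A, an orphan receptor induced by retinoic acid, from 8.03 to 24.0 CPM, both without overlap (FDR 0.00917 and 0.0167). CP, ceruloplasmin, the copper-carrying ferroxidase, lay between 6.79 and 25.6 CPM and then between 31.9 and 121 CPM (log2 fold change 2.19 ± 0.49 (SE), FDR 0.0181). MFI2, melanotransferrin, another protein of iron handling, was near 1 CPM at 12 months (0.528 to 1.66) and between 0.919 and 18.5 CPM in gestation (FDR 0.0167). CDKN2B, an inhibitor of the cell cycle kinases CDK4 and CDK6, rose from a median of 11.04 to 42.4 CPM in spite of 38.4 CPM in heifer 21 at 12 months (FDR 0.00751).

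Smaller rises passed the test as well. SCUBE2, a secreted protein that releases hedgehog ligands, lay between 70.0 and 132 CPM at 12 months and between 134 and 208 CPM in gestation, without overlap (FDR 0.0112). VSTM4, a membrane protein of the immunoglobulin family, went from 29.0 to 34.1 CPM at 12 months up to 36.9 to 67.5 CPM in gestation, also without overlap (FDR 0.0127). RNASE1, a secreted ribonuclease, had medians of 35.1 and 52.2 CPM, DDAH2, which degrades inhibitors of nitric oxide synthase, 126 and 175 CPM, and OLFM2, an olfactomedin, 5.56 and 15.5 CPM. IRS1, the insulin receptor substrate, was the called member of 5 genes of insulin and growth hormone signalling (19.9 and 28.7 CPM, log2 fold change 0.50 ± 0.13 (SE), FDR 0.0425), and its call was lost when any heifer but heifer 1 was left out. VCAM1, the vascular adhesion molecule, was the called member of 3 genes of inflammatory cytokines and adhesion, with medians of 186 and 289.5 CPM and only heifer 13 lower (FDR 0.0268), a call lost without heifer 7, 9, 17 or 21. In bulk tissue more cells of a type and more RNA per cell cannot be told apart.

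Of the 41 gene lists drawn up for this tissue, 31 had a member with an identifier and 8 of these had a called member. The 6 genes of cholesterol synthesis were all negative (median -0.22), with SC5D, sterol desaturase, at 115 and 99.8 CPM (FDR 0.396). Of 11 genes of glycolysis and glucose uptake 7 were negative (median -0.12), and SLC16A7, a carrier of pyruvate and other monocarboxylates, had medians of 346 and 192 CPM (FDR 0.178). The genes with the lowest p in the lists of heat shock (HSPE1), angiogenesis (EPAS1), circadian clock (NFIL3), immediate early response (KLF4) and complement (SERPING1) had FDR values of 0.142, 0.368, 0.302, 0.459 and 0.507.

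LEP, leptin, the satiety hormone of fat cells, did not pass. It ranged from 84.6 to 601 CPM at 12 months and from 238 to 1166 CPM in gestation, with 5 of 6 heifers higher (log2 fold change 1.27 ± 0.39 (SE), FDR 0.08). The HMY heifers 1, 9 and 17 went from 84.6, 106.8 and 261 CPM to 395.6, 768.5 and 1166 CPM. The LCM heifers 7, 13 and 21 went from 407.9, 182.5 and 601 CPM to 512.9, 238 and 483.8 CPM. The difference between the lines in the change of LEP was 2.275 ± 0.564 (SE) and did not pass (FDR 0.74). VLDLR, the receptor for lipoproteins of very low density, gave 0.71 on the log2 scale (FDR 0.0529), and CRYM, a thyroid hormone binding protein, was higher in 6 of 6 heifers but reached 64.2 CPM in 1 library against a gestation median of 5.19 CPM (FDR 0.0753). None of the marker lists of other cell types had a called member. The summed levels of muscle, smooth muscle, fibroblast, T cell, epithelial and nerve markers gave exact sign-flip p-values from 0.406 to 0.906. Each of these marker lists had at most 6 matched members, and endothelial cells, macrophages, B cells, neutrophils, mast cells and red blood cells had none. ACTA1, skeletal muscle actin, was 51.7 CPM in heifer 9 at 12 months and 73.0 CPM in heifer 17 in gestation, and its part in the results was not tested beyond leaving out both heifers.

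The change in HPLE heifers was set beside that of the other diets, whose heifers were different animals. In LPLE heifers 144 genes were called (1.05%, with 0.707% higher and 0.343% lower), in HPHE heifers 5012 (36.5%, with 18.8% higher and 17.8% lower) and in LPHE heifers 4675 (34.1%, with 16.9% higher and 17.2% lower). Of the 311 HPLE calls, 60 were also called in the same direction in LPLE (19.3% of the HPLE and 41.7% of the LPLE calls), 255 in HPHE (82% and 5.09%) and 256 in LPHE (82.3% and 5.48%). None was called in the opposite direction in LPLE or HPHE, and 2 were in LPHE. All these calls came from 1 fit in which the diets shared the spread of each gene. Calls in common are therefore not independent of each other. Against LPLE the difference in the change was called for 0 genes (366 at an unadjusted p under 0.05, lowest FDR 0.999), and the likelihood ratio test and DESeq2 also called 0. CNTN3, a neural adhesion protein, was among the 5 genes with the lowest p in that difference, with 0.63 in HPLE and -0.47 in LPLE heifers (FDR of the difference 0.999). Against the mean of the other 3 diets it was called for 0 genes (1084 at an unadjusted p under 0.05), with 2 by the likelihood ratio test and 6 by DESeq2.

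The medians of the 9 metabolic lists plotted by diet lay between those of LPLE and of both high-energy diets. That of the 4 genes of fatty acid uptake and activation, not plotted, did not, with 0.06 in HPLE, 0.33 in LPLE, -0.48 in HPHE and 0.16 in LPHE. For the electron transport chain the median log2 fold change was -0.42 in HPLE, -0.09 in LPLE, -1.11 in HPHE and -1.12 in LPHE, and 2, 0, 52 and 52 of the 52 genes were called lower. For branched-chain amino acid breakdown it was -0.37, -0.02, -1.08 and -0.97, with 3, 0, 13 and 13 of 14 genes called. For fatty acid synthesis it was -0.64, 0.08, -2.77 and -1.93, with 0, 0, 8 and 8 of 9 genes called. LEP rose in LPLE heifers (1.61, FDR 0.037) and had a change of -0.53 in HPHE heifers (FDR 0.263), while CDKN2B rose by 2.19 in LPLE and gave -0.05 in HPHE heifers (FDR 0.000722 and 0.9). The difference between HPLE and HPHE in the change did not pass for LEP (FDR 0.0776) or CDKN2B (FDR 0.0564). That between LPLE and HPHE was not tested.

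**Figure D4:**
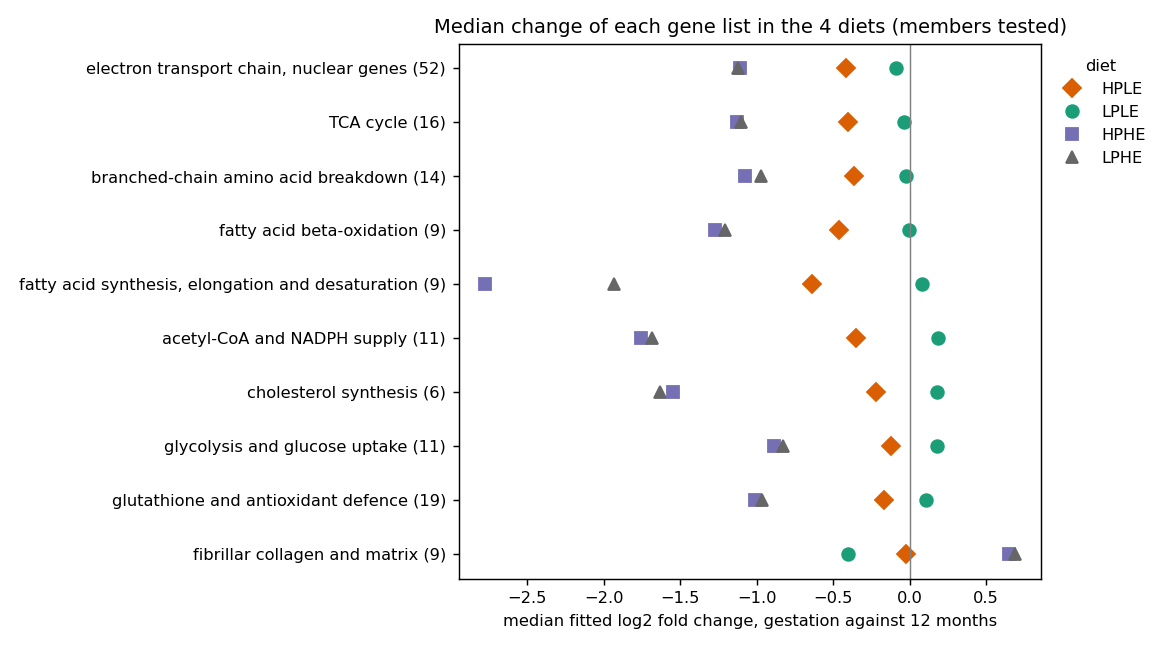
Median fitted log2 fold change of gestation against 12 months (x axis) over the members of each gene list (y axis, number of genes tested in parentheses) in HPLE (diamonds), LPLE (circles), HPHE (squares) and LPHE (triangles) heifers. In the 9 metabolic lists plotted the HPLE median lies below that of LPLE and above those of HPHE and LPHE, for example -0.42 for the electron transport chain against -0.09, -1.11 and -1.12.

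HPHE heifers received the same high-protein concentrate as HPLE heifers but another roughage. That roughage was fed ad libitum and also held more crude protein, so energy and protein intake differed together. HPHE heifers also became pregnant at a lower age, so the interval between the biopsies differed as well. Against HPHE the change with time differed for 131 genes (0.955%), 114 with a higher (0.831%) and 17 with a lower value (0.124%) in HPLE. This count rested on single animals: it was 4 without heifer 1, 1 without heifer 9, 215 without heifer 13, 500 without heifer 7, 81 without heifer 21 and 0 without heifers 9 and 17, and 1 gene was called without the heifer block. Of the 131 genes, 82 were lower in gestation in both diets and more so in HPHE, 43 moved in opposite directions, and 126 were called within HPHE and 6 within HPLE. Among the 1006 genes with a symbol, from which all lists were drawn, 92 differed, 84 of them with a higher value in HPLE. In the acetyl-CoA and NADPH list 7 of 11 genes differed and in the fatty acid synthesis list 5 of 9, all higher in HPLE. These counts fell to 0 of 11 and 0 of 9 without heifer 1 or heifer 9. With library size alone as the scaling, under which the median difference of all genes moved from -0.04 to -0.14, the same lists had 4 and 1. At most 4 genes were called without heifer 1 or without heifer 9. Most of the differences from HPHE named in what follows thus lost their call in these fits.

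FASN had means of 9177 ± 4500 and 4582 ± 2436 CPM (SD, n = 6) in HPLE heifers at 12 months and in gestation, against 11853 ± 2433 and 1272 ± 291 CPM in HPHE heifers. The difference in its change was 2.17 ± 0.50 (SE) on the log2 scale (FDR 0.0412). SLC25A1 gave means of 525 and 242 CPM against 732 and 88.2 CPM, a difference of 1.97 (FDR 0.0393). For both genes the HPHE levels in gestation lay below the HPLE range. ACACA, acetyl-CoA carboxylase, SCD, the delta-9 desaturase, and ME1, malic enzyme, differed likewise by 2.35, 2.56 and 1.96, with changes of -0.33, -0.64 and -0.02 in HPLE and -2.68, -3.21 and -1.97 in HPHE heifers. ME1 was also on the study's list of genes that differed between HPHE and HPLE at 12 months, as were SOST and KLF11 in what follows.

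PDK4, KLF11 and SOST had a called change in HPHE heifers and none in HPLE heifers. PDK4, which holds back the entry of pyruvate into the citric acid cycle and rises in fasting, had means of 229 and 159 CPM in HPLE and 139.8 and 468 CPM in HPHE heifers (difference -2.39 ± 0.44, FDR 0.0261). It rose in HPHE (1.82, FDR 0.00015) and gave -0.58 in HPLE heifers (FDR 0.36). KLF11, a transcription factor, went from 76.0 to 248 CPM in HPHE and from 116 to 114 CPM in HPLE heifers (difference -1.79, FDR 0.0191). SOST, sclerostin, a secreted Wnt antagonist, fell from 31.9 to 2.401 CPM in HPHE and lay at 3.76 and 6.96 CPM in HPLE heifers (difference 5.44, FDR 0.0191).

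NNAT fell in HPLE heifers and had means of 93.9 and 88.5 CPM in HPHE heifers, so that the gestation means of 81.7 ± 31.1 and 88.5 ± 40.1 CPM (SD, n = 6) were within 1 SD of each other (difference in change -1.94, FDR 0.0393). NNAT also fell in LPLE heifers (-1.67, FDR 0.0146). TAGLN2, an actin binding protein, rose in HPLE (518 and 713 CPM) and had means of 723 and 623 CPM in HPHE heifers (difference 0.66, FDR 0.0469). Among antioxidant enzymes PRDX1, peroxiredoxin, and NQO1, quinone reductase, differed by 0.86 and 1.08, with changes of -0.15 and -0.15 in HPLE that did not pass and falls of 1.01 and 1.24 on the log2 scale in HPHE heifers. PDXP, pyridoxal phosphatase, differed by 0.99 (FDR 0.0261).

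**Figure D5:**
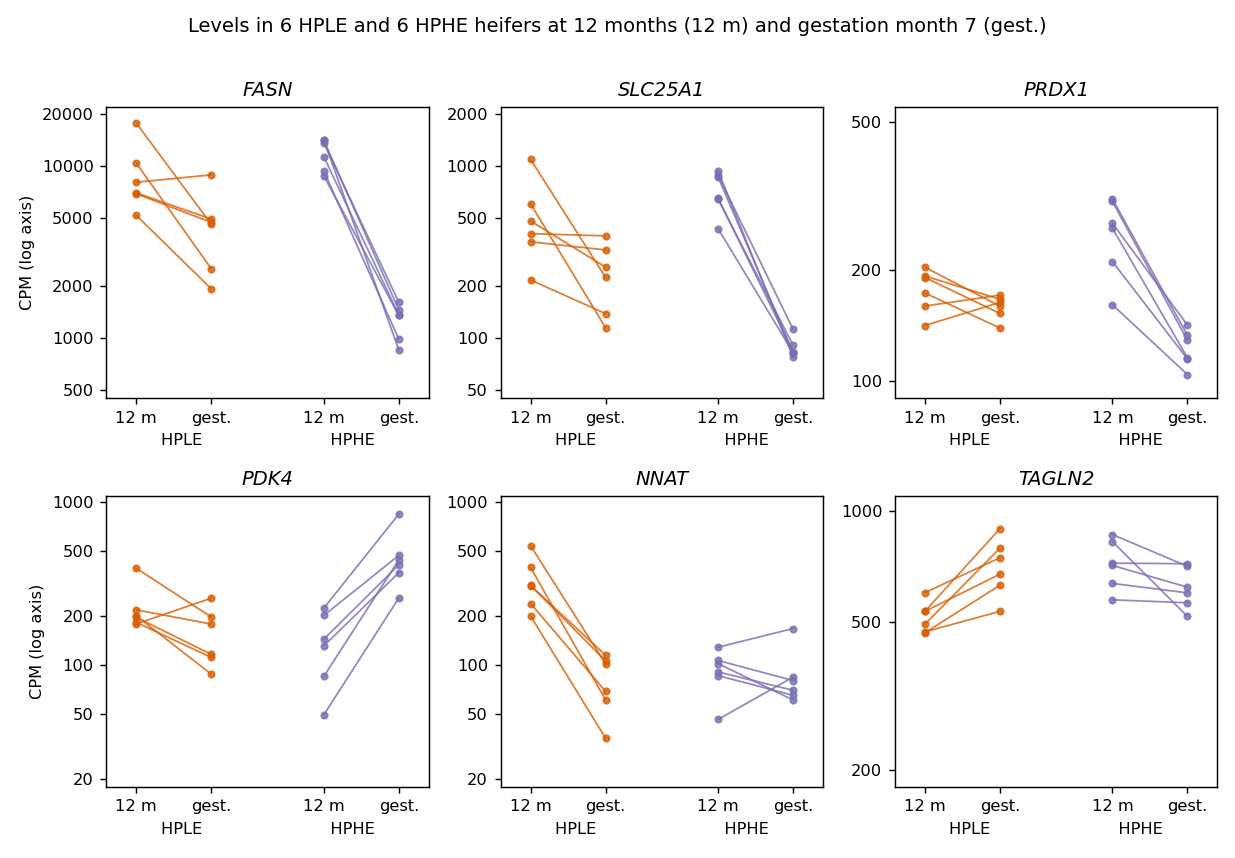
Levels in CPM after TMM scaling (y axes, log scale, a different range in each panel) of 6 genes at 12 months and in month 7 of gestation (x axes) in 6 HPLE (orange) and 6 HPHE heifers (purple), each line being 1 heifer. FASN and SLC25A1 fell to below the HPLE range in every HPHE heifer, PDK4 was higher in gestation in all 6 HPHE heifers, and NNAT fell in all 6 HPLE heifers to 35.7 to 115 CPM.

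The direction of the changes was also set beside the effect of dietary energy in other animals. In a separate comparison of LPHE with LPLE heifers at 12 months, 643 of the 1006 genes with a symbol were higher in LPHE, and of these 28 fell and 6 rose in HPLE heifers between 12 months and gestation. Of the 363 that were lower in LPHE, 4 fell and 14 rose. Over all genes tested the counts were 87 lower and 62 higher among 6408, and 32 lower and 130 higher among 7310. This comparison used no HPLE library, and only 2 genes passed its own test at FDR under 0.05. The study contrasted the same groups at 12 months with another fit and an FDR of 0.1, and called many more genes. Most symbols came from that list, so the split of the genes with a symbol is not independent of their selection.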

How the data were processed

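The authors trimmed the paired-end reads with cutadapt 1.3, aligned them to UMD3.1 with TopHat2 2.0.12 and deposited raw read counts per Ensembl gene, made with HTSeq, with no normalization. The setting for strand and the annotation release were not given in the sources used here, so reads of overlapping or antisense genes and of near-identical copies, mitochondrial insertions in the nuclear genome included, cannot be told apart. Each sample had a file of its own, with 24616 gene rows and 5 summary rows that were dropped.

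Samples were grouped by diet, time and heifer from the labels. The filter kept 13718 genes that reached 2 CPM in 3 or more of the 48 samples. Counts were scaled with TMM and tested with the quasi-likelihood test of edgeR 4.0.16 (R 4.3.3), with a block for each heifer and a separate time effect for each diet. Benjamini-Hochberg adjustment ran over all genes, and genes with an FDR under 0.05 were called. The SE of a log2 fold change was derived as its absolute size divided by the square root of the F statistic of that test. Single values per library were compared with a two-sided exact sign-flip permutation test over 6 heifers. The numbers pair samples of the same animal, and deviations of same-numbered samples from their group means correlated at 0.13 to 0.38, while 3 of 6 gestation samples correlated best with their own number. The test was tried before use on simulated data with 200 changed genes and 1 spread per gene in all diets. It called 147 genes with all 48 samples, 3 of them falsely, and 115 with the 12 HPLE samples, 4 of them falsely. No libraries of a group were alike within sampling noise (lowest chi-square per degree of freedom 53.4 over 30 pairs). Replicates were separate animals.

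No annotation of UMD3.1 was used here, so no coordinates or sequences are given, and symbols came from the study's tables (1006 identifiers, 20 of them from its HPHE against HPLE list). Named genes were the 15 risers and 15 fallers with the lowest p that passed, moved alike in 6 of 6 heifers and had a symbol, up to 3 called members of each list in each direction or else the member with the lowest p, the 5 lowest p in each difference between diets or lines, and LEP and ACTA1. A gene that met this rule is not reported here, though counts of named genes include it. Genes of these differences without a symbol were not named, and other genes named in the text were chosen after their values were seen. The comparison, members and gene lists were chosen with earlier results of these data known. Alternatives were no heifer block, only the 12 HPLE samples, the likelihood ratio test, DESeq2 1.42.0, RLE factors, library size alone, no filter, at least 10 counts in every sample, an FDR of 0.1 and each heifer left out. Leaving out heifers 9 and 17 together, and the likelihood ratio test on the 12 samples, were added after the data were seen.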

Additional observations from a re-analysis of the deposited data

Results flagged for a closer look

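The change with time differed between HPLE and HPHE heifers for 131 genes by the test of the difference itself. Those named here differed by -1.94 (NNAT), 0.66 (TAGLN2), 1.97 (SLC25A1), 2.17 (FASN), 0.99 (PDXP), -2.39 (PDK4), 5.44 (SOST), 0.86 (PRDX1), 1.08 (NQO1) and -1.79 (KLF11) on the log2 scale, HPLE minus HPHE, each at FDR under 0.05. The number of genes called ran from 1 to 500 with each HPLE heifer left out in turn. It was 4 without heifer 1, 1 without heifer 9 and 1 without the heifer block. Most of the genes named here thus lost their call in each of these 3 fits.

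In 12 of 144 groups of 6 HPLE levels of the named genes the highest or lowest library stood far from the nearest of the others, where chance alone gives about 1 in 20. Heifer 1 had 1.53 CPM of ENSBTAG00000003515 (low), 177 CPM of OAS1X (high) and 299 CPM of KLF4 (high) at 12 months. Heifer 9 had 394 CPM of PDK4 at 12 months and 97.4 CPM of HSPE1 in gestation, both high. Heifer 21 had 38.4 CPM of CDKN2B at 12 months (high) and 30.2 CPM of ENSBTAG00000015402 in gestation (low). In gestation heifer 13 had 46.1 CPM of DECR1 and 463 CPM of EPAS1, both low, and 6.30 CPM of CNTN3 (high). Heifer 17 had 48.3 CPM of MYH2, a myosin of fast muscle fibres, and 73.0 CPM of ACTA1 in gestation, both high.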

How the results depend on the processing

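The 311 genes called in HPLE heifers became 702 at an FDR of 0.1, 577 with the likelihood ratio test, 806 with DESeq2, 9 with only the 12 HPLE samples and 492 with the likelihood ratio test on these. They numbered 117 to 326 with each heifer left out in turn and 89 without heifers 9 and 17. In simulated counts with known changes the share of false calls was 2.04% with the test used and 9.3% with the likelihood ratio test. It was 18.9% with DESeq2 and 27.3% with the likelihood ratio test on the 12 samples. The larger counts of these alternatives are therefore not further support for a change. Without the replicate block, so without the pairing by heifer, 156 genes were called, and 15 of the 40 named genes that passed lost their call (among them RNASE1, SCUBE2, MFI2, C1QTNF6, PCK2, ALDH6A1, VCAM1, OLFM2, GSTT3, MCEE, DDAH2, TAGLN2, LARP6 and IRS1). The 131 genes that differed from HPHE became 714 at an FDR of 0.1, 489 with the likelihood ratio test, 837 with DESeq2, 212 with RLE factors, 38 with library size alone, 1 without the replicate block, 1 to 500 with each heifer left out and 0 without heifers 9 and 17. With library size alone 26 of the 38 were higher in HPLE, against 114 of 131. The difference from the mean of the other diets gave 2 calls with the likelihood ratio test and 6 with DESeq2 in place of 0, and that between the lines gave 2, 6 and, with the likelihood ratio test on the 12 samples, 27. The line difference was not fitted without the block. Beyond the simulated counts, the cause of these shifts was not tested.

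Of the 40 named genes that passed, none changed sign under any alternative run. Most of them were picked because they were called and moved alike in 6 of 6 heifers. Their kept sign therefore follows largely from that choice and is not separate evidence. With each heifer left out 23 to 36 of the 40 kept their call, 14 without heifers 9 and 17 and 6 with only the 12 HPLE samples. Among genes that had not passed, ACTA1 changed sign without the block (0.20), TINAGL1 and KLF11 without heifers 9 and 17 (-0.085 and 0.052), and 4 genes with a heifer left out, over which CIDEC ran from -0.24 to 0.054, CNN1, a smooth muscle protein, from -0.64 to 0.11, KLF11 from -0.20 to 0.025 and S100B, a Schwann cell marker, from -0.18 to 0.22.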
